A study of Mus musculus with 38 samples.

Results

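The insulin-like growth factor (IGF) axis of the liver was described here through 9 genes: the IGF binding protein genes Igfbp1, Igfbp2, Igfbp3 and Igfbp4, the acid-labile subunit gene Igfals, the hormone gene Igf1, the receptor genes Igf1r and Ghr, and the feedback gene Socs2. They were taken by gene symbol and are 9 of 17501 named genes on the array, with 13 of 36607 probes. Igf1 had 3 probes, Igfbp3 and Igfbp4 had 2 each, and the other genes had 1 each. The genes were selected on the genotype comparison of these livers, in which Igfbp1 was higher in knockouts at both ages. The genotype differences of the 9 genes are therefore given as descriptions with no test. Tests are kept for the difference between ages and for other genes, of the pathway and of stress responses.

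RNA was measured in the livers of 20 male mice on 38 two-colour arrays, and every mouse had received 10 micrograms per gram of N-nitrosodiethylamine (DEN), a liver carcinogen, by intraperitoneal injection at 14 days of age. The 4 groups held 5 mice each. The knockouts were Alb-Cre +/-; Met Fl/Fl mice, which lose the hepatocyte growth factor receptor Met in cells where the albumin promoter drives Cre, with the strain label 129SV/C57BL6. The controls carried the same Alb-Cre +/- transgene and had the strain label B6129, so the strain labels also differ between the genotypes. One group of each genotype is called 3 months and the other 5 months, after the time since DEN in the design text. The labels give ages of 12 and 20 weeks, so how long after the dose the livers were taken is unsettled. Each liver was hybridised against 1 reference, RNA pooled from 5 wild-type B6129 male livers aged 12 weeks, in both dye orientations for 18 mice. The 5-month knockout 2 had its liver in Cy3 alone and the 5-month knockout 3 in Cy5 alone.

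Values are log2 ratios of liver over reference, 1 per probe and mouse. They give no absolute level, so values of different probes are not set against each other as levels, and cell type markers could not be checked for presence. The numerator of the deposited ratios is not stated. Cy5 over Cy3 was taken as likely, and if it was Cy3 over Cy5, every direction given here turns round. The base of the logarithm was taken as 2. In whole liver, fewer cells of a type and less RNA per cell cannot be told apart. Runs of consecutive database numbers in the array titles were taken as array series, and the labels do not say that these are hybridisation runs. At 3 months there were 2 series, each with mice of both genotypes. At 5 months 1 series held the 5 controls and knockouts 1 and 2, and another held knockouts 3, 4 and 5. No series held both ages, so age and array series cannot be told apart. The single Met probe was higher in 3-month knockouts by 0.42 ± 0.22 (SE; limma, adjusted p = 0.639) and lower in 5-month knockouts by a difference of -0.05 (adjusted p = 0.977). Whether that probe lies in the deleted part is not given in the sources used here, so it does not check the labels.

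In the IGF axis, growth hormone binds its receptor on hepatocytes and induces Igf1 and Igfals. Circulating IGF-1 is carried by binding proteins, mostly in a complex of IGF-1, IGFBP-3 and the acid-labile subunit. IGFBP-1 is a short-lived binding protein of hepatocytes, transcribed in fasting and repressed by insulin, which removes FoxO transcription factors from the nucleus.

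The promoter of Igfbp1 is shown because this gene carried the genotype difference, and that of Igfbp3 because the 2 genes are neighbours. Igfbp1 lies at chr11:7197787-7202546 and Igfbp3 at chr11:7206086-7215498 (GRCm38.p6), with 3539 bases between them. The 250 bases before each annotated start were read from RefSeq (GRCm38.p6), which listed a window for 8 of the 9 genes (12 windows in all). They follow in the 5′ to 3′ direction of each gene, Igfbp1 from chr11:7197537-7197786 on the plus strand and Igfbp3 from chr11:7213924-7214173 on the minus strand, with capitals marking both forms of the FoxO-type motif, TGTTTTG and TATTTTG, searched on both strands.
Igfbp1: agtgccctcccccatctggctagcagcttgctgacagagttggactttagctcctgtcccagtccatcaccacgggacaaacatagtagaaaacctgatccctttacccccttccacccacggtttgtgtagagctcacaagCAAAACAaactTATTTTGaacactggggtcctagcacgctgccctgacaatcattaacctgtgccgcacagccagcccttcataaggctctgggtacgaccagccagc
Igfbp3: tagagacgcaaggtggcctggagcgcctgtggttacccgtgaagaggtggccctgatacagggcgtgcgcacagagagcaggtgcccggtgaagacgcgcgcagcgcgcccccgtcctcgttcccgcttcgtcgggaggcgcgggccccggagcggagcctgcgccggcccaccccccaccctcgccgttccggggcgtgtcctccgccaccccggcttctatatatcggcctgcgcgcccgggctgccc
The Igfbp1 window held CAAAACA, the reverse complement of TGTTTTG, at bases 108 to 102 before the start, and TATTTTG at bases 97 to 91. None of the other 11 windows held either form. Of 32851 promoter windows of the same length, 5.561% held TGTTTTG, 3.954% held TATTTTG and 0.381% held both. TATTTTG was added after the Igfbp1 window had been seen, so the shares with it do not measure how unusual that window is. The Igfbp3 window was 73.2% G and C, against 53.2% in the Igfbp1 window and a median of 52.4% over all windows. The motif TTCNNNGAA, which reads the same on both strands and is the form bound by STAT5 below the growth hormone receptor, was found in Igfals and in none of the other 7 genes with a window. It read TTCTCAGAA at bases 236 to 228 before the first listed start and TTCCTAGAA at bases 58 to 50 before the second, and 7.02% of all windows held it. No motif search says whether a factor bound there.

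Igfbp1 showed the widest genotype difference of the 13 probes at both ages. In 3-month knockouts its 5 values were -0.16, -0.28, -0.08, -0.44 and -0.25, against -1.71, -1.60, -2.07, -1.66 and -0.98 in 3-month controls. The groups did not overlap, and the knockouts lay 1.36 ± 0.22 higher (SE), which is 2.57-fold. Each SE of a difference comes from limma, with 1 spread per probe shared by the 4 groups of 5 mice. In 5-month knockouts the values were -0.69, -0.0011, -0.55, -0.94 and -0.74, against -1.97, -1.21, -0.90, -1.83 and -1.90 in 5-month controls. There the difference was 0.98 ± 0.22, or 1.97-fold. All 5 knockouts lay above the control mean, and knockout 4 lay just below control 3, so the groups overlapped.

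All 20 livers were below the reference for Igfbp1, with 5-month knockout 2 almost level with it. The means at 3 months were -0.24 ± 0.14 in knockouts and -1.61 ± 0.39 in controls (SD, n = 5 each). At 5 months they were -0.59 ± 0.35 in knockouts and -1.56 ± 0.48 in controls. The distance from the reference was thus smaller in the knockouts than in the controls. The reference is 1 pool, so these levels have no test.

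**Figure D1:**
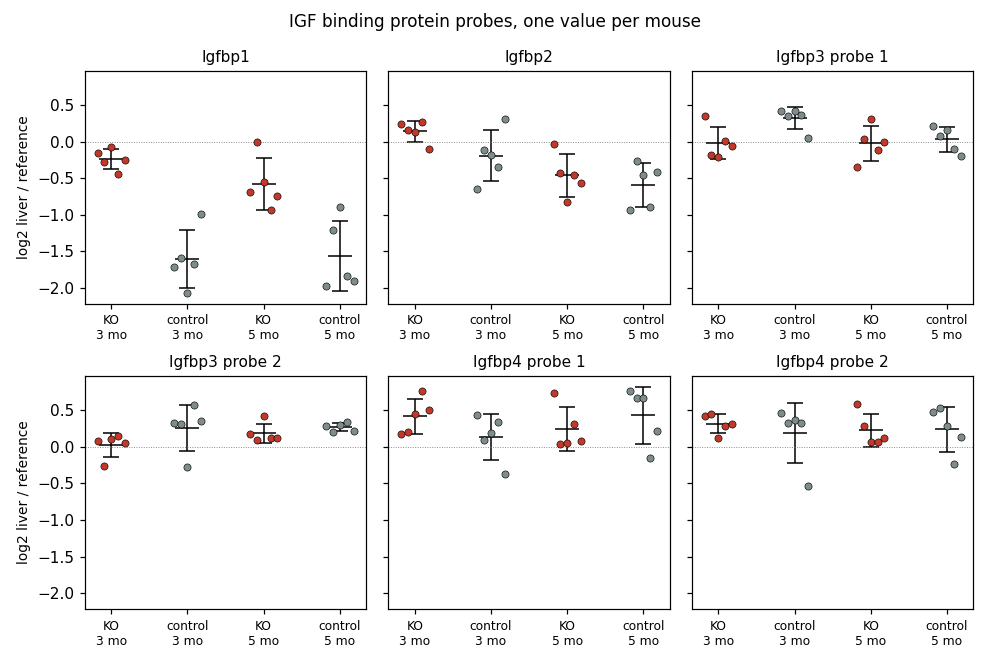
Log2 liver-over-reference value of each mouse (points, 5 per group) for the 6 probes of Igfbp1, Igfbp2, Igfbp3 and Igfbp4, with the group mean and SD as bars. KO is knockout and mo is months. The Igfbp1 knockouts lie between -0.94 and -0.0011, and the controls between -2.07 and -0.90.

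The Igfbp1 difference was present in both dye orientations and in every array series that held both genotypes. These are parts of the same values that chose the gene, so they describe the difference and are no separate support. At 3 months it was 1.51 in liver-in-Cy5 arrays and 1.22 in liver-in-Cy3 arrays, and at 5 months 0.64 and 1.15. Within the 3-month series it was 1.57 (2 knockouts, 3 controls) and 1.07 (3 knockouts, 2 controls). Within the 5-month series that held both genotypes it was 1.22, where both knockouts lay above all 5 controls. The repeat arrays of a mouse did not always lie close. In 3-month knockout 4 the array with liver in Cy5 read 0.07 and the array with liver in Cy3 -0.95, and in 3-month knockout 5 they read -0.72 and 0.22. In the other mice with both orientations, the arrays of a mouse differed by at most 0.475.

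**Figure D2:**
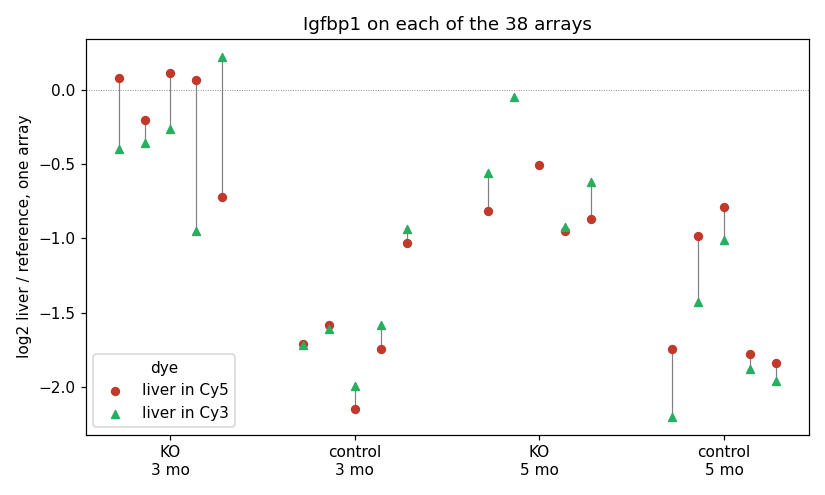
Igfbp1 on each of the 38 arrays, as log2 liver over reference before any dye effect was removed. Circles are arrays with the liver in Cy5, triangles arrays with the liver in Cy3, and a grey line joins the arrays of 1 mouse. The 2 longest lines belong to 3-month knockouts 4 and 5.

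Igfbp2, a binding protein of fetal and fasting liver, was close to the reference at 3 months and below it at 5 months in both genotypes. Its 3-month values were 0.24, 0.15, 0.13, 0.27 and -0.10 in knockouts, against -0.64, -0.11, -0.18, -0.34 and 0.32 in controls. Of the knockouts 4 of 5 were above 0, and of the controls 1 of 5. The genotype difference was 0.33 ± 0.18, and the groups overlapped. At 5 months the means were -0.46 ± 0.29 in knockouts and -0.59 ± 0.30 in controls (SD), a difference of 0.13 ± 0.18 (SE). In the 3-month series it was 0.51 and 0.12, and in the 5-month series with both genotypes 0.36. The 5-month direction turned with the dyes, at 0.54 in liver-in-Cy5 and -0.20 in liver-in-Cy3 arrays.

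Igfbp3, the main carrier of IGF-1 in plasma, lies next to Igfbp1 but ran the other way at 3 months. Its probe 1 read 0.34, -0.18, -0.21, 0.01 and -0.06 in 3-month knockouts, against 0.42, 0.35, 0.42, 0.37 and 0.05 in 3-month controls. Apart from knockout 1, every knockout was below control 5, the lowest control. The difference was -0.34 ± 0.14 at 3 months and -0.05 ± 0.14 at 5 months. Probe 2 gave -0.23 and -0.08. Its arrays lay far apart in 3-month control 3, at -1.54 with the liver in Cy5 and 1.00 with the liver in Cy3. The probes hardly followed each other from mouse to mouse (r = 0.13 over 20 mice after group means were removed), so neither is given as the level of the gene.

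Igfbp4, a binding protein that restrains IGF action, differed little. Probe 1 was 0.28 ± 0.20 higher in 3-month knockouts and lay at -0.19 ± 0.20 relative to controls at 5 months, and probe 2 lay at 0.13 and -0.01. Its 2 probes moved together over mice (r = 0.75). Leaving out 3-month control 5, the lowest control on both probes, brought the 3-month differences to 0.15 and -0.05.

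Igfals, which codes for the acid-labile subunit, ranged widely at 3 months. Its values were 0.43, -0.06, 0.46, 0.43 and -0.25 in 3-month knockouts, against 0.72, 0.02, 0.28, 0.09 and -0.66 in 3-month controls. The groups overlapped almost fully, with a difference of 0.11 ± 0.20. At 5 months the knockouts ranged from -0.16 to 0.32 and the controls from 0.06 to 0.33, and the difference was -0.20 ± 0.20. Without 3-month control 5 the 3-month difference was -0.08.

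For Igf1, the hormone itself, all 3 probes were higher in 5-month knockouts than in 5-month controls. Probe 1 read 0.43, 0.19, 0.56, 0.33 and 0.43 in 5-month knockouts, against -0.02, 0.03, 0.33, -0.57 and 0.14 in 5-month controls. Probe 2 read 0.06, -0.02, -0.05, 0.06 and -0.10 in knockouts, against -0.23, -0.17, -0.18, -0.73 and -0.26 in controls. Probe 3 read 0.30, 0.05, 0.59, 0.32 and 0.54 in knockouts, against -0.09, -0.25, 0.08, -0.72 and -0.11 in controls. The groups were apart on probe 2, and on probe 3 only control 3 exceeded a knockout. The differences were 0.40 ± 0.16, 0.31 ± 0.11 and 0.58 ± 0.16 (SE). Control 4 was the lowest mouse on each probe, and without it they were 0.27, 0.20 and 0.45. Within the series that held both genotypes they were 0.32, 0.34 and 0.39.

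At 3 months the Igf1 probes differed by 0.01, 0.06 and 0.25 between knockouts and controls. Probes 1 and 3 followed each other over the 20 mice (r = 0.85), and probe 2 followed them less (r = 0.31 with probe 1 and 0.41 with probe 3). The test of a change in the genotype difference between ages was not made for these genes, because the genotype contrast chose them.

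Marker genes of several liver cell types were also higher in 5-month knockouts, with no probe past the adjusted p threshold of 0.05. Over the probes of each list the median genotype difference at 5 months was 0.17 for hepatocytes, 0.36 for sinusoidal endothelium, 0.27 for Kupffer cells and macrophages, 0.17 for stellate cells and fibroblasts, 0.20 for cholangiocytes and 0.11 for lymphocytes, against 0.01 over all probes. The mean of the 11 endothelial probes ranged from -0.13 to 0.20 in 5-month knockouts and from -0.28 to -0.13 in 5-month controls. The mean of the 10 hepatocyte probes ranged from -0.16 to 0.11 in knockouts and from -0.68 to 0.05 in controls. At 3 months the list medians lay between -0.08 and 0.10. The part of these shifts in the Igf1 differences was not tested.

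**Figure D3:**
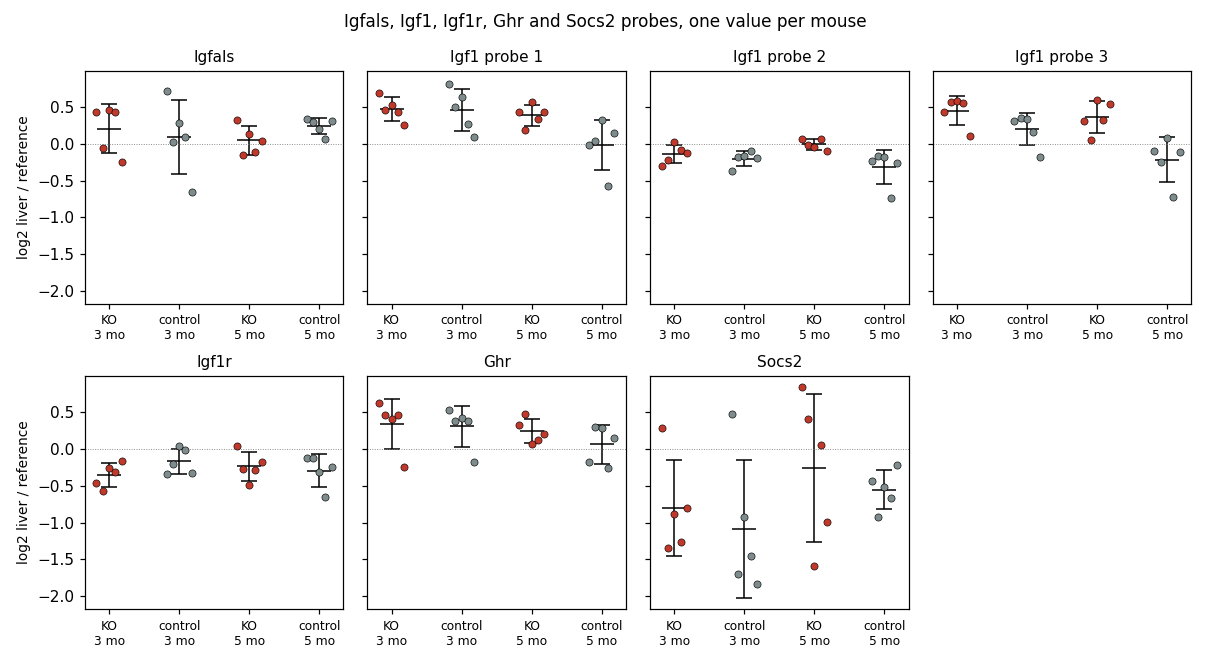
Log2 liver-over-reference value of each mouse (points, 5 per group) for the probes of Igfals, Igf1, Igf1r, Ghr and Socs2, with the group mean and SD as bars. KO is knockout and mo is months. On Igf1 probe 2 the 5-month knockouts lie between -0.10 and 0.06 and the 5-month controls between -0.73 and -0.17.

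Of the receptors, Igf1r, the receptor that IGF-1 signals through and which hepatocytes carry sparsely, was a little below the reference in 18 of 20 mice. Its difference was -0.19 ± 0.13 at 3 months and 0.05 ± 0.13 at 5 months. Ghr, the growth hormone receptor, differed by 0.04 ± 0.17 and 0.18 ± 0.17. The groups overlapped for both genes at both ages. In Ghr, 3-month knockout 5 and 3-month control 5 were low, at -0.25 and -0.18, while the other 3-month mice lay between 0.38 and 0.63. The arrays of that knockout lay far apart, at 0.29 with the liver in Cy5 and -0.79 with the liver in Cy3.

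Socs2, which growth hormone induces and which in turn dampens its receptor, was the most variable of the 9 genes. It read 0.28, -1.34, -0.88, -1.27 and -0.80 in 3-month knockouts, against 0.48, -1.70, -0.92, -1.46 and -1.83 in 3-month controls. It read 0.85, 0.40, -1.59, 0.06 and -1.0 in 5-month knockouts, against -0.43, -0.93, -0.52, -0.66 and -0.21 in 5-month controls. At 3 months 1 mouse of each genotype lay above the reference and its group mates far below it, and at 5 months 3 of 5 knockouts and 0 of 5 controls lay above it. The genotype differences, 0.29 ± 0.45 and 0.30 ± 0.45, were smaller than their errors and hung on single mice. At 3 months the difference was 0.016 without knockout 1 and 0.68 without control 1, and at 5 months 0.020 without knockout 1 and 0.63 without knockout 3. Within the 3-month series it was 0.18 and 0.67, and within the 5-month series with both genotypes 1.18.

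Over the 13 probes, 10 were higher and 3 lower in 3-month knockouts, with a median difference of 0.11 (-0.02 over all probes), and 8 were higher and 5 lower in 5-month knockouts, with a median of 0.13 (0.01 over all probes). The groups did not overlap for 1 of 13 probes at 3 months (Igfbp1), against 1.31% of all probes, and for 1 of 13 at 5 months (Igf1 probe 2), against 3.93% of all probes. The genotype contrast served to choose the genes, so nothing is read from these counts.

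**Figure D4:**
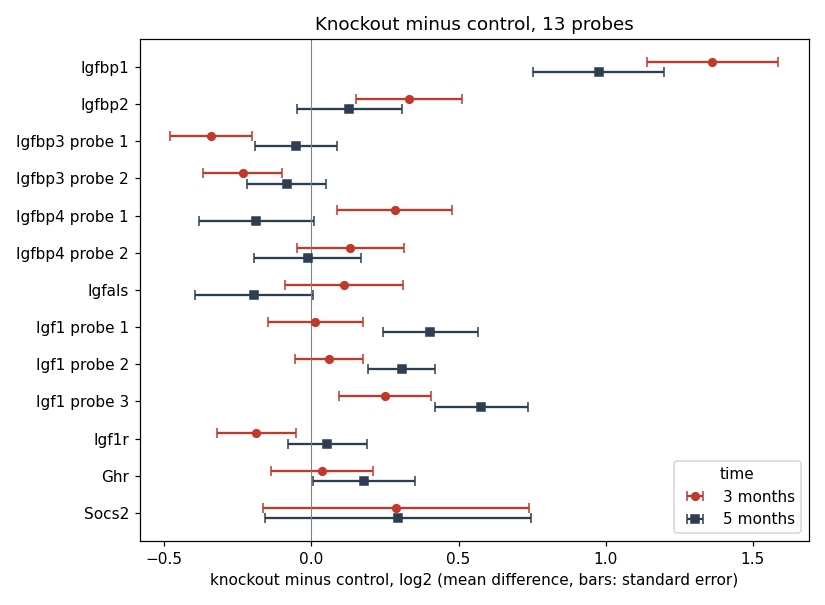
Knockout minus control (mean difference in log2 units, 5 mice per group) for each of the 13 probes. Circles are 3 months and squares 5 months, and bars are limma standard errors with 1 spread per probe shared by the 4 groups. Igfbp1 stands farthest right at both ages, at 1.36 and 0.98, and the 3 Igf1 probes are farther right at 5 months than at 3 months.

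The difference between ages did not choose the genes and was tested with limma over all probes. None of the 13 probes passed an adjusted p of 0.05 in knockouts, where 6.28% of all probes did, or in controls, where 15.3% did. At an unadjusted p under 0.05 there were 1 and 4 of 13, against 26.6% and 33.0% of all probes. The level of all probes shifted between ages, with a median difference (5 minus 3 months) of 0.14 in knockouts and 0.13 in controls, and the medians of the 13 probes were -0.09 and -0.11. After each array was centred on its median, 12 of 13 probes in knockouts and 10 of 13 in controls were lower at 5 months, and 1 and 4 passed. The share of all probes that passed was then 6.13% and 17.5%, and of the passing probes 41.5% in knockouts and 25.1% in controls were higher at 5 months, against 85.9% and 52.0% as deposited.

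Igfbp2 had the clearest difference between ages in knockouts. It was lower at 5 months by a difference of -0.60 ± 0.18 (limma, adjusted p = 0.0508) and below the 3-month mean in 5 of 5 mice. In controls the difference was -0.40 ± 0.18 (adjusted p = 0.128). Relative to the array medians they were -0.77 ± 0.18 (adjusted p = 0.0242) and -0.54 ± 0.18 (adjusted p = 0.0467). Only the fits without 1 mouse that went under 0.05 are named here. The adjusted p in knockouts was 0.0391 without 3-month control 1, 0.0340 without 3-month control 5 and 0.0346 without 5-month knockout 1. The controls do not enter this difference, which stayed at -0.60 without either, and act through the shared spread and the adjustment alone. Over all alternatives the adjusted p in knockouts ran from 0.0107 to 0.323.

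Igf1 was lower in 5-month than in 3-month controls on probe 1, by a difference of -0.48 ± 0.16 (adjusted p = 0.0504), and on probe 3 (-0.41 ± 0.16, adjusted p = 0.0779). On probe 2 it was -0.11. In knockouts the 3 differences were -0.09, 0.13 and -0.09. Relative to the array medians, probes 1 and 3 in controls fell by 0.62 (adjusted p = 0.0199) and 0.56 (adjusted p = 0.0295). Again only the fits without 1 mouse that went under 0.05 are named. The adjusted p of probe 1 as deposited was 0.0476 without 3-month knockout 5, which does not enter this difference. It was 0.0491 without 3-month control 4, 0.0234 without 3-month control 5 and 0.0319 without 5-month control 3. The adjusted p of probe 3 was 0.0337 without 3-month control 5. Over all alternatives the adjusted p ran from 0.0176 to 0.144 for probe 1 and from 0.0223 to 0.214 for probe 3. Without 5-month control 4 the differences of probes 1 and 3 were smaller, at -0.34 and -0.29. The 5-month controls enter both the age difference in controls and the genotype difference at 5 months, so the 2 are not independent.

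The difference of Igfbp1 between ages did not pass in either genotype, at -0.34 ± 0.22 in knockouts (adjusted p = 0.334) and 0.04 ± 0.22 in controls (adjusted p = 0.905). In controls its direction depended on the scaling, with -0.10 after centring and -0.74 (adjusted p = 0.0472) after quantile normalisation of the mouse values. Probe 1 of Igfbp3 lay -0.29 ± 0.14 lower at 5 months in controls (adjusted p = 0.149), and -0.44 relative to the array medians (adjusted p = 0.0437). Socs2 was higher at 5 months by 0.55 ± 0.45 and 0.54 ± 0.45, within its spread. None of these age values can be told apart from the array series.

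**Figure D5:**
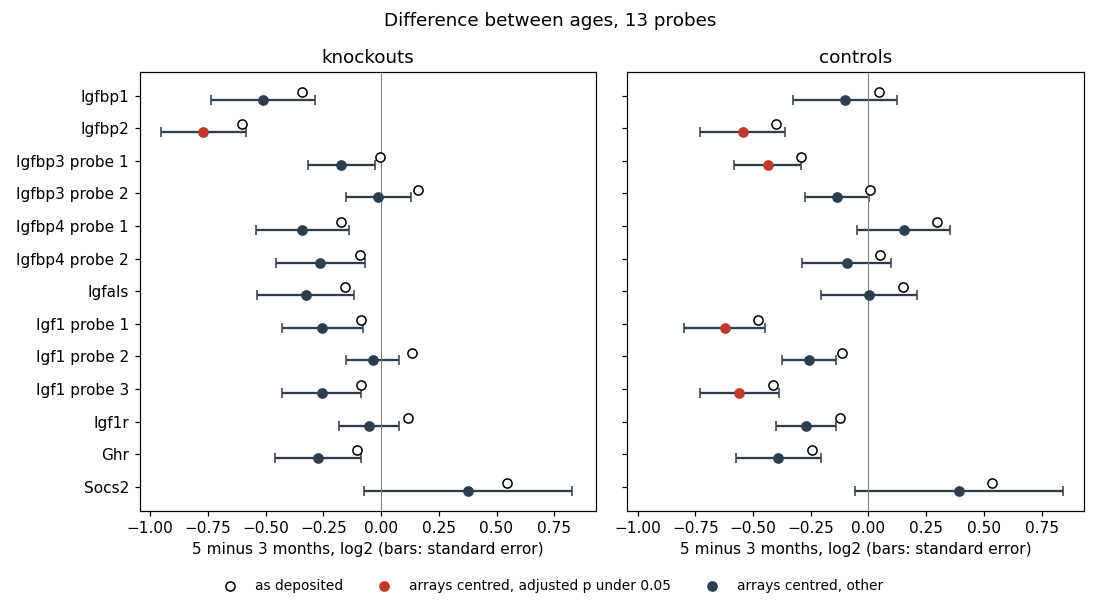
Difference between ages (5 minus 3 months, log2) of the 13 probes in knockouts (left) and controls (right). Open circles are values as deposited, filled circles values after each array was centred on its median with standard errors as bars, and red marks an adjusted p under 0.05, which 1 probe reaches in knockouts and 4 reach in controls.

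Other genes of the pathway, and genes of amino acid and endoplasmic reticulum stress, were taken from 5 lists, 67 of 73 listed genes with 103 probes. None passed the genotype test at either age. The lists were chosen with earlier results of these data known, so their tests are not independent of those results. At 3 months 0 of 103 probes passed in limma, where 0.071% of all probes did, with 11 at an unadjusted p under 0.05 (8.47% of all probes). At 5 months it was 0 of 103, where 0.112% of all probes did, with 21 at an unadjusted p under 0.05 (10.4% of all probes). The methods' t-test at an unadjusted p under 0.001 gave 1 and 2. The median genotype difference of the 103 probes was 0.06 at 3 months and 0.07 at 5 months. The change of the genotype difference between ages passed for 0 of 103 probes, and for 0% of all probes. At an unadjusted p under 0.05 it was 8 of 103 and 8.06% of all probes.

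Among the other IGF axis genes (23 probes, median differences 0.01 and 0.02), Igfbp7, a low-affinity binding protein of endothelium and stroma, had the 2 smallest p-values at 5 months. Its probes lay higher in 5-month knockouts by 0.70 ± 0.18 (adjusted p = 0.139) and 0.58 ± 0.16 (adjusted p = 0.196), with 5 of 5 knockouts above the control mean on each. Pappa, a protease that cuts binding proteins, had as large a difference, -0.71 ± 0.69 (adjusted p = 0.81). Both Igfbp5 probes lay lower in 5-month knockouts, at -0.50 ± 0.21 (adjusted p = 0.414) and -0.42 ± 0.34 (adjusted p = 0.746). At 3 months Htra1 (0.64 ± 0.26, adjusted p = 0.499) and Igfbpl1 (-0.59 ± 0.26, adjusted p = 0.554) had the smallest p-values of this list. Without 5-month control 3 the first Igfbp7 probe was 0.84 with an adjusted p of 0.0401. Between ages both Igfbp7 probes fell in controls, by 0.99 (adjusted p = 0.00217) and 0.69 (adjusted p = 0.00949). In knockouts they stood at -0.56 (adjusted p = 0.0612) and -0.39 (adjusted p = 0.13), with 5 of 5 mice below the 3-month mean on each. Insr, the insulin receptor, rose at 5 months in knockouts by 0.51 ± 0.14 (adjusted p = 0.0407).

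Among fasting and FoxO target genes (19 probes, median differences 0.09 and -0.03), which insulin represses or induces along with Igfbp1, no probe passed. G6pc, the glucose-6-phosphatase of gluconeogenesis, was 0.75 ± 0.23 higher in 3-month knockouts, and the groups did not overlap (adjusted p = 0.261). Angptl4, a fasting-induced inhibitor of lipoprotein lipase, lay at 0.37 ± 0.15 on 1 probe at 3 months (adjusted p = 0.468) and at -0.60 ± 0.21 on another at 5 months (adjusted p = 0.333). Without 5-month knockout 2, a mouse with a single array, that second value was -0.83 with an adjusted p of 0.0489. Srebf1, a lipogenic factor that insulin induces, was 0.72 ± 0.24 higher in 5-month knockouts (adjusted p = 0.295).

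Amino acid and endoplasmic reticulum stress genes (10 probes, median differences -0.08 and 0.46) held the probe with the largest genotype difference of the 103 at each age, of Asns. Asns, asparagine synthetase, was higher in 3-month knockouts by 1.50 ± 0.46 and 0.94 ± 0.31 on 2 probes (adjusted p = 0.291 and 0.329), and in 5-month knockouts by 1.16 ± 0.46 and 0.96 ± 0.31 (adjusted p = 0.387 and 0.279), in each case with 5 of 5 knockouts above the control mean. Atf4, the factor that induces Asns, lay 0.54 ± 0.14 higher in 5-month knockouts on 1 probe (adjusted p = 0.189). None of these passed the test.

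In insulin signalling downstream of the receptors (28 probes, median differences 0.05 and 0.04), Irs1, an adaptor that insulin and IGF-1 receptors phosphorylate, was 0.48 ± 0.12 higher in 5-month knockouts with no overlap of the groups on 1 probe (adjusted p = 0.133) and stood at -0.27 on its other probe. Foxo1, the factor that binds the motif shown for Igfbp1, was at 0.33 ± 0.14 in 3-month knockouts and -0.33 ± 0.14 in 5-month knockouts relative to controls on 1 probe, and at 0.23 and 0.20 on the other. The change between ages on the first was -0.66 ± 0.20, with an adjusted p of 0.425. In the growth hormone list (23 probes, median differences 0.11 and 0.13), Cyp2d9, a male-specific cytochrome that growth hormone pulses maintain, was 0.49 ± 0.14 higher in 5-month knockouts (adjusted p = 0.226).

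Between ages, 10 of 103 probes passed in knockouts (7 higher, 3 lower at 5 months) and 20 in controls (8 higher, 12 lower), against 6.28% and 15.3% of all probes. After centring, 10 passed in knockouts (2 higher, 8 lower) and 24 in controls (5 higher, 19 lower), and 5 and 17 of them were among those that passed as deposited. None of the passing probes turned direction with centring. Pik3r1, a regulatory subunit of phosphoinositide 3-kinase, rose by 1.42 ± 0.24 in knockouts (adjusted p = 0.0076) and 1.16 ± 0.24 in controls (adjusted p = 0.00541). Of the 4 Foxo3 probes 1 passed, at 1.16 ± 0.33 in knockouts (adjusted p = 0.045) and 1.19 ± 0.33 in controls (adjusted p = 0.0239), while another stood at -0.27 and -0.38. Elovl3, a male-specific fatty acid elongase with a strong daily rhythm, fell by 1.57 in knockouts (adjusted p = 0.0155) and 1.51 in controls (adjusted p = 0.00722). Foxo1 rose by 0.92 ± 0.14 in controls on 1 probe (adjusted p = 0.00086) and stood at -0.02 on the other. The others that rose in knockouts were Socs3 (1.40), a cytokine-induced inhibitor of growth hormone signalling, Igfbpl1 (0.92), Foxa2 (0.72) and Igf2bp1 (0.61), and the others that fell were Angptl4 (-0.83) and Stat5b (-0.58), the factor that carries the growth hormone signal to Igf1. In controls Htra1 (0.85), Angptl4 on another probe (0.77), Susd4 (0.42), Pappa2 (0.34) and a second Pik3r1 probe (1.15) also rose, and Cdkn1a (-1.24), Srebf1 (-1.08), the male-specific Hsd3b5 (-0.79) and Irs1 (-0.75) also fell. Other probes of some of these genes went the other way in controls, at 0.65 for Irs1, -0.29 for Angptl4, -0.19 for Susd4 and -0.08 for Pappa2. In the stress list 5 of 10 probes, of Ddit3, Herpud1, Hspa5 and Atf4, passed as lower in controls, where 6 of 10 were lower. In knockouts 5 of 10 were lower and none passed, with 1 at an unadjusted p under 0.05. The largest change between genotypes among them, 0.88 ± 0.28 for Herpud1, had an adjusted p of 0.458.

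The genes that followed Igfbp1 most closely from mouse to mouse, over 20 mice with group means removed, were Nfkbia (r = 0.83), Bcas2 (r = 0.80), Clk1 (r = 0.79), Angptl4 (r = 0.78) and Slc22a30 (r = 0.73). Those that ran most against it were Tbx4 (r = -0.81), Fzd1 (r = -0.80) and Olfr437 (r = -0.78). They were the extremes of all probes with 1 gene symbol, the points share arrays, and 2 other probes of Angptl4 reached r of 0.40 and 0.31 and 3 others of Clk1 reached 0.58, 0.43 and 0.36. The other probes of Slc22a30 reached 0.43 and 0.54, and the other probe of Tbx4 stood at 0.03. Nfkbia itself differed by 0.07 between genotypes at both ages, and Tbx4 by -0.59 and -0.69. Among the 9 genes, Igfbp1 went most with Igfbp2 (r = 0.42) and most against Igfals (r = -0.38). Igfals went with Igf1 probe 1 (r = 0.69) and Ghr (r = 0.65), and Ghr with Igf1 probe 1 (r = 0.63). Igf1 probe 2 followed neither, at r = 0.03 with Igfals and 0.18 with Ghr.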

How the data were processed

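Each deposited value is the log ratio of the 2 dyes for 1 probe on 1 array. Invalid features were dropped by the authors and arrays were scaled to their 50th percentile in mAdb, per the series' design text. That text also names a 2-sample t-test with a random variance model. The t-test used here was an ordinary 2-sample t-test with pooled variance and without that model. The log2 base of the deposited values was taken, not stated: the largest absolute value, 10.24, is beyond what a scanner's range allows on a log10 scale, and natural logs could not be told apart from base 2. Signal, background and depth are unknown, so dim probes were not filtered, and precision rests on how many arrays there are.

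Arrays were turned to liver over reference, a probe's mean dye effect within each age was removed, and each mouse got the mean of its arrays. The dye effect was taken within age because its SD across probes was 0.82 at 3 months and 0.27 at 5 months. It acts only on 5-month knockouts 2 and 3, which have 1 array each. The 200 probes with the smallest genotype p in 1 orientation had the same sign in the other in 142 to 156 at 3 months and 148 to 179 at 5 months. For the age difference it was 44 and 140 in knockouts and 19 and 131 in controls (ranked by Cy5 and by Cy3), so most of the top age differences in liver-in-Cy5 arrays had the opposite sign in liver-in-Cy3 arrays. All 20 mice were fitted with limma 3.58.1 (lmFit, eBayes) in R 4.3.3, with Benjamini-Hochberg adjustment over 36607 probes and a threshold of 0.05. The fit was run on simulated data with independent normal errors per probe and mouse. That simulation held no array series and no likeness between probes, so it does not measure power in these arrays. Mice are separate animals per the labels.

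Gene names came from the platform annotation, with 26926 probes of 1 symbol, 203 of several and 9478 of none. All probes of the 9 genes are named. From the 5 companion lists (other IGF axis genes, growth hormone signalling and its targets, insulin signalling, fasting and FoxO targets, amino acid and endoplasmic reticulum stress), the rule named probes past the threshold and the 2 with the largest moderated statistic in each comparison. For the genotype comparisons the text gives a selection of them. It adds Pappa and Igfbp5, which the rule did not name in the 5-month genotype comparison. The rule for likeness took the 5 genes with the highest r and the 3 with the lowest. The 9 genes, the lists and the 6 cell marker lists were chosen with earlier results of these data known. The search for TATTTTG was added after the Igfbp1 window had been seen.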

Additional observations from a re-analysis of the deposited data

Results flagged for a closer look

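In 7 of 52 sets of 5 values (13 probes in 4 groups) 1 mouse lay far from the other 4 of its group, by Dixon's test at the 95% level. For normal values chance gives about 1 in 20 sets. The 52 sets share mice and arrays, so the 7 were not tested against that rate. The 3-month control animal 5 was such a mouse on 3 probes: Igfbp3 probe 1 at 0.05 (others 0.35 to 0.42), Igfbp4 probe 2 at -0.54 (others 0.32 to 0.46) and Ghr at -0.18 (others 0.38 to 0.53). In Ghr the 3-month knockout animal 5 was also low, at -0.25 (others 0.41 to 0.63). Before any dye effect was removed, its arrays read 0.29 with the liver in Cy5 and -0.79 with the liver in Cy3. Igfbp3 probe 2 stood at -0.26 in 3-month knockout animal 2 (others 0.05 to 0.15), and at 0.42 in 5-month knockout animal 3 (others 0.09 to 0.17), a mouse with a single array. The arrays of 3-month knockout animal 2 read -0.875 with the liver in Cy5 and 0.349 with the liver in Cy3. Whether a flagged value comes from the mouse or from an array was not tested. Igf1 probe 2 stood at -0.73 in 5-month control animal 4 (others -0.26 to -0.17). The dye effect of that control, from both its arrays, correlated at -0.25 to 0.05 with those of other mice, against 0.43 to 0.66 among the other 5-month mice.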

How the results depend on the processing

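The Igfbp1 genotype difference kept its direction under every alternative. The alternatives reuse the values that chose the gene, so this is no separate support. Of the 13 probes, 7 kept the sign of the genotype difference under every alternative at 3 months and 6 at 5 months. The Igfbp1 difference ran from 1.25 to 1.52 at 3 months and 0.83 to 1.14 at 5 months when 1 mouse was left out. Otherwise it ran from 1.07 to 1.57 and 0.64 to 1.31. Without 5-month knockouts 2 and 3 it was 0.77. Same-numbered mice did not deviate together over all probes (r from -0.28 to 0.11). This cannot exclude a pairing, and the main fit did not use the numbers to pair the mice. A replicate block cannot move a difference of means in this balanced design (1.36 and 0.98 for Igfbp1). With it the count of all probes called was 4 at 3 months and 1 at 5 months. In the fits as reported it was 26 and 41. At 3 months the count was 13 with a pooled dye effect, 2 in each orientation alone, 51 with array series as a covariate, and 0 within each series and in that age alone. The ordinary 2-sample t-test gave 63 unadjusted and 0 adjusted. At 5 months the count was 76 after quantile normalisation, 2 and 0 in liver-in-Cy5 and liver-in-Cy3 arrays, and 21 without knockouts 2 and 3. It was 3 with the series covariate, 1 within a series, 5 in that age alone, and 211 and 1 by the ordinary 2-sample t-test. Leaving out 1 mouse gave 0 to 76 and 10 to 99. The cause of these changes was not tested.

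For the age difference, the count over all probes was 2299 in knockouts and 5607 in controls. In knockouts it was 4333 after quantile normalisation, 10207 in liver-in-Cy5 and 5 in liver-in-Cy3 arrays, 13 without knockouts 2 and 3, 1115 in that genotype alone, and 417 to 3772 without 1 mouse. In controls it was 17546 in liver-in-Cy5 arrays and 2418 to 6720 without 1 mouse. A single orientation also carries the difference in dye effect between ages. Of the 13 probes, 1 passed in knockouts after centring, after quantile normalisation and without the array of control 4 at 5 months that has its liver in Cy5, and 0 to 1 without 1 mouse. In controls 4 passed after centring and after quantile normalisation, 3 in liver-in-Cy5 arrays, 1 with a pooled dye effect and 0 to 2 without 1 mouse.

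Small age differences changed sign. After centring, Igfbp3 probe 2, Igf1 probe 2 and Igf1r in knockouts were -0.011, -0.037 and -0.054, and Igfbp1, Igfbp3 probe 2 and Igfbp4 probe 2 in controls -0.101, -0.137 and -0.095. After quantile normalisation the same 6 were -0.040, -0.065, -0.095, -0.735, -0.123 and -0.016. In liver-in-Cy3 arrays, Igfbp3 probe 2 and Ghr in knockouts were -0.20 and 0.15, and Igfbp1, Igfbp3 probe 2 and Igf1 probe 2 in controls -0.126, -0.405 and 0.011. Without that array, Igfbp3 probe 2 in controls was -0.0052. Without 1 mouse, Igfbp3 probe 1 in knockouts ran from -0.086 to 0.088, and Igfbp1, Igfbp3 probe 2, Igfbp4 probe 2 and Igfals in controls from -0.121 to 0.200, -0.124 to 0.087, -0.131 to 0.170 and -0.039 to 0.307. Of the 103 companion probes, the genotype count was 1 and 2 by the ordinary 2-sample t-test at an unadjusted p under 0.001, against 63 and 211 of all probes. Without 1 mouse the count at 5 months was 0 to 1. For the change of the genotype difference between ages, the count of these probes stayed at 0 in 27 alternatives chosen after seeing the data.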
